A study of Capra hircus with 3 samples.

Results

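Inner root sheath cells of goat fetal hair follicles were described at embryonic day 120 (E120) from single-cell RNA sequencing of back skin. The cells were selected on measured keratin levels. A cell counted as an inner root sheath cell when the keratins KRT25, KRT27, KRT28, KRT71 and KRT73 together reached at least 200 counts per 10000 (CP10K) and exceeded the summed hair shaft keratins KRT35, KRT85 and KRT84. The rule selected 380 of 6896 E120 cells, or 5.51% (exact 95% binomial interval 4.98 to 6.08%), and 1.84% of the 20676 cells of the series. The remaining 6516 E120 cells served for comparison. Among them, 1397 shaft keratin cells, whose shaft keratins reached 200 CP10K and were at least as high as the sheath keratins, formed a second comparison group.

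The study sampled fetuses of the Northern Shaanxi White Cashmere Goat at E60, E90 and E120, with 1 library (10x Genomics 3′ chemistry) per stage. Each library pooled suspensions from at least 2 fetuses, which cannot be separated here, so each stage was 1 sample. E60 and E90 skin was dissociated whole with collagenase IV. At E120 follicles were first picked out of collagenase-treated skin with forceps and then dissociated with TypLE Express, so stage and preparation cannot be told apart, and shares are shares of the cells recovered from dissected follicles. No test between groups was possible, and all intervals below cover counting error only.

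The inner root sheath is the tube of keratinocytes that surrounds and moulds the growing hair below the skin surface. It consists of Henle's layer, Huxley's layer and a cuticle, which arise from the hair matrix, stop dividing, and harden as trichohyalin is citrullinated by peptidylarginine deiminases and crosslinked to keratin filaments by transglutaminases. Its filaments pair type I keratins (KRT25, KRT26, KRT27 and KRT28) with type II keratins (KRT71, KRT72, KRT73 and KRT74), and GATA3 is a transcription factor known for its role in forming this lineage.

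The keratin levels that chose the cells are given first. Their summed sheath keratins had a median of 430.9 CP10K (quartiles 296 and 690) and a maximum of 4045 CP10K, against a median of 3.42 CP10K for the shaft keratins. In the other E120 cells the sheath keratins had a median of 4.11 CP10K. All 380 E120 cells at or above 200 CP10K of sheath keratins also met the second condition. A single sheath cell had shaft keratins above 200 CP10K, at 279 CP10K, and it was called a doublet. The lower bound, in contrast, cut through a continuous range. The 3 cells just outside it had 199.5, 199.4 and 196.7 CP10K, the 3 just inside had 200.4, 201.1 and 202.5 CP10K, and 205 cells lay between 100 and 200 CP10K. The 380 cells are therefore a range of keratin level rather than a bounded class.

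**Figure D1:**
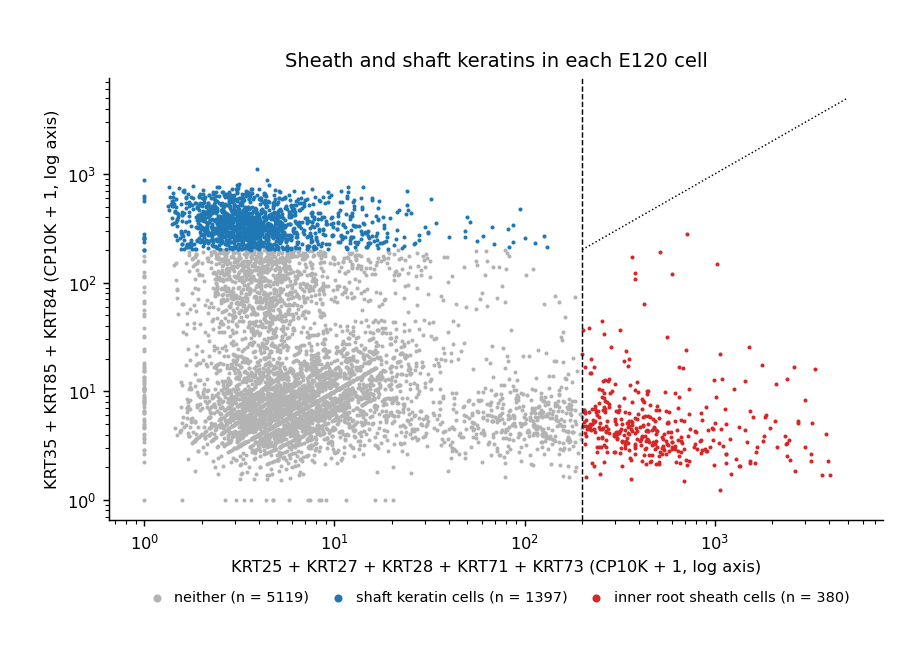
Each point is 1 E120 cell, with summed sheath keratins on the horizontal axis and summed shaft keratins on the vertical axis, both as CP10K + 1 on log axes. The dashed line is the bound of 200 CP10K and the dotted line marks equal sums; the 380 inner root sheath cells lie right of the dashed line and below the dotted one, as the rule sets, while 205 cells fill the range just left of the bound.

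Sheath and shaft keratin cells had similar depth per cell. The sheath cells held 7818324 transcript counts (UMIs, unique molecular identifiers). The median was 19865 per cell (2488 to 86419), with a median of 2569 detected genes. The shaft keratin cells had a nearby median of 19280 UMIs, and all other E120 cells a lower one of 12729.5. Mitochondrial transcripts made up a median of 4.75% of UMIs in sheath cells and 5.29% in the others. When every cell was thinned to 2000 UMIs, sheath cells showed a median of 639 genes, shaft keratin cells 657 and the other cells 717. Of the sheath cell barcodes, 1 also occurred in another library, as did 23 of all E120 barcodes.

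KRT71 was the leading sheath keratin. Counts here are of 3′ ends, 1 per captured transcript, and so are not scaled by gene length. KRT71 had the highest count of the 5 keratins in 355 of 380 cells (93.4%), KRT28 in 12, KRT27 in 9, KRT25 in 4 and KRT73 in 0. Per cell, KRT71 ranged from 32.9 to 1861 CP10K (median 235.7), and KRT25 from 20.3 to 626 CP10K (median 118.6). KRT27 had a median of 51.2 CP10K and KRT28 one of 20.1 CP10K, but both were at 0 in some cells, and the median of KRT73 was 0. All 5 keratins were found in 125 cells, 4 in 219 cells, 3 in 35 cells and 2 in 1 cell. Together the 5 genes supplied 8.07% of all UMIs of the sheath cells and 0.123% of those of the other E120 cells. Since these genes chose the cells, these values describe the choice.

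Transcripts of type I and type II keratins were near balance in the sum over the group, while filament protein was not measured. Type I keratins gave 304658 UMIs and type II keratins 326009, so that type I made up 48.3% of the 5-keratin total. Within single cells this share had a median of 46.9% and ranged from 22.3 to 78.5%. The composition of the type I part differed along the range of keratin level, whereas the type I share stayed between 46.2 and 50.2%. When the cells were ordered by summed keratins and cut into 3 groups of near equal size (terciles of 127, 127 and 126 cells), KRT27 supplied 10.1%, 10.7% and 27.9% of the 5-keratin UMIs from the lowest to the highest tercile. KRT28 supplied 11.6%, 7.11% and 1.62%. In CPM, the count scaled to a total of 1000000 over the summed UMIs, KRT27 stood at 2653, 4737 and 40602, KRT71 at 12900, 23682 and 74859, and KRT25 at 7483, 12530 and 27747. KRT28 did not follow these, at 3058, 3142 and 2365 CPM, and KRT73 ran the other way, at 176, 82.1 and 23.5 CPM.

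The remaining keratins of the family, which the rule did not use, were sparse. KRT26 reached 14.7 CPM in sheath cells (exact 95% Poisson interval 12.1 to 17.7) and 0.199 CPM in the other E120 cells, a 74.0-fold ratio (44.3 to 132). KRT74 stood at 9.34 against 0.0701 CPM and KRT72 at 4.22 against 0.0935 CPM. KRT74 was found in 28 of 380 cells and KRT26 and KRT72 in 15 each. KRT25, KRT26 and KRT27 are immediate neighbours, in that order, in RefSeq's annotation of ARS1.2, yet KRT26 was found in 3.95% of the sheath cells and KRT27 in 99.7%. How reads shared between similar keratins were counted is not given in the sources used here, so counts of close paralogues are uncertain.

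**Figure D2:**
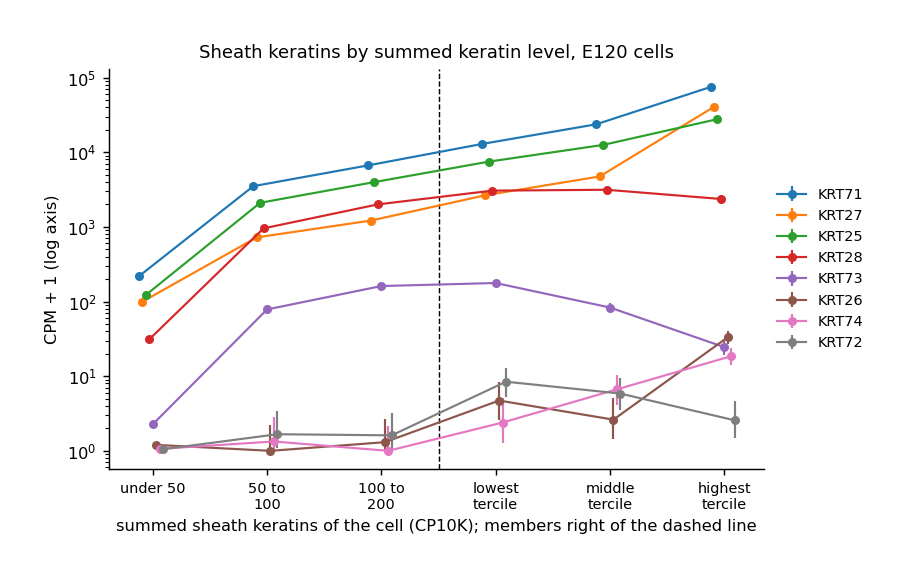
Levels of the 5 selecting keratins and of KRT26, KRT72 and KRT74, as CPM + 1 on a log axis, in 6 groups of E120 cells ordered by summed sheath keratins; bars are exact 95% Poisson intervals and the dashed line separates sheath cells, on the right, from cells under the bound. KRT27 is at 4737 CPM in the middle tercile and 40602 CPM in the highest, while KRT73 is at 176 CPM in the lowest tercile and 23.5 CPM in the highest.

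Sheath keratin UMIs also occurred in cells that should lack them. In 333 E120 cells with at least 4 of 9 endothelial markers, KRT71 was found in 88.3% of cells at their own median depth of 6530 UMIs, and in 46.8% after thinning to 2000 UMIs. The thinned share was 42.1% in all other E120 cells and 100% in sheath cells. KRT25 and KRT27 gave thinned shares of 23.4% and 29.1% in the endothelial-like cells, close to the 25.4% and 25.6% of the other cells. Over the other E120 cells as a whole, the shares with a KRT71, KRT25 or KRT27 UMI were thus near this background and were not read as expression. This does not hold for every part of that group. In the 205 cells just under the keratin bound, the thinned shares were 100% for KRT71, 99.5% for KRT25 and 79.5% for KRT27. Over the other cells as a whole, GATA3 was different from these keratins. Its thinned share was 63.2% in sheath cells, 13.4% in the other cells and 3.30% in the endothelial-like cells.

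No cell of the earlier stages met the rule. At E60, 0 of 6849 cells did, which by a floor of 3 counts allows a share of up to 0.0438% (upper limit of the exact 95% binomial interval 0.0538%). At E90 0 of 6931 cells did, which allows up to 0.0433% (0.0532%). The highest summed sheath keratin level was 1.53 CP10K at E60 and 11.6 CP10K at E90, against 4045 CP10K at E120. At least 1 UMI of the 5 keratins was found in 11 cells at E60, 148 at E90 and 6812 at E120.

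Beyond the keratins, the sheath cells had higher levels of several late differentiation genes than the average of all other E120 cells, and lower levels of genes of dividing and basal cells. Of 5207 genes with at least 10 CPM in either sum, without the 8 keratins of the rule, 3.55% were at least 2-fold higher in sheath cells than in all other E120 cells and 18.6% at least 2-fold lower. The median gene stood at a log2 ratio of -0.36, and the sheath keratins themselves took part of the total. Leaving the 8 keratins out of the totals moved the log2 ratio of the summed mitotic genes from -3.76 to -3.66. How much of the median shift came from the keratins was not tested. All log2 ratios are of CPM + 1. The cells were chosen within this same contrast, so the counts that follow describe the sheath cells and are read against those percentages only as a scale.

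The genes with the largest excess had varied known functions. SBSN, the suprabasal epithelial protein suprabasin, stood at 3676 CPM in sheath cells, 139 in the others and 24.1 in shaft keratin cells. FABP9, of the fatty acid-binding proteins, was at 7408, 139 and 171 CPM. CASP14, a protease of cornifying keratinocytes, was at 164, 3.23 and 1.31 CPM, but 5 cells held 60.2% of its UMIs. After thinning to 2000 UMIs, SBSN was found in 87.9% of sheath cells, 8.55% of the other cells and 4.80% of endothelial-like cells, and FABP9 in 80.0%, 20.5% and 17.7%. CASP14 was found in 17.1% of the sheath cells before thinning and 8.16% after it. LRAT, which esterifies retinol for storage, was at 371 CPM against 33.9 (10.9-fold, 10.4 to 11.5), and was found in 87.4% of sheath cells. SLC39A8, a zinc importer, was at 188 CPM against 11.1, but also at 111 CPM in the endothelial-like cells. CHP2, a calcineurin-like calcium-binding protein, was at 357 CPM against 12.8, and ANXA1, a calcium-dependent membrane-binding protein, at 523 CPM against 37.5.

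Genes of cornification, the terminal hardening of keratinocytes, were more often high than low. Of 32 listed genes measured, 19 reached 10 CPM on either side, of which 11 were at least 2-fold higher and 4 at least 2-fold lower. Of all genes, 3.55% were higher and 18.6% lower. The median log2 ratio of the list was 2.28. PADI3, a deiminase that acts on trichohyalin, was at 486 CPM in sheath cells against 46.7 in the others (10.4-fold, 9.96 to 10.9). PADI1, a second deiminase, was at 41.6 against 2.42 CPM, and TGM1, a transglutaminase, at 32.5 against 2.62 CPM. These enzymes make the modifications by which sheath proteins are hardened. SPINK5, an inhibitor of the epidermal kallikrein proteases, was at 566 against 58.5 CPM, and CALML5, a calmodulin-like protein of differentiating keratinocytes, at 138 against 14.3 CPM. The lipid enzyme ELOVL4, which elongates very long fatty acids, was at 48.2 against 2.27 CPM. The 4 lower genes, a share near the 18.6% of all genes, encode proteases or their inhibitors, as do some of the higher ones: KLK7 was at 7.16 against 39.1 CPM, CSTA at 7.55 against 24.3, CTSV at 69.3 against 387, and CST6 at 234 against 481. Trichohyalin and TGM3 were not analysed here under those symbols.

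Junction genes included higher and lower members. Of 15 listed junction genes at 10 CPM, 6 were at least 2-fold higher in sheath cells and 3 at least 2-fold lower (median log2 ratio 0.67), against 3.55% and 18.6% of all genes, so the lower share was near that of all genes. Among the desmosomal cadherins, DSG1 was at 919 CPM against 180 and DSC1 at 354 against 31.2. The cadherins DSG3, DSG4 and DSC3 were lower, at 0.895 against 16.9, 0.895 against 18.9 and 24.2 against 81.9 CPM. DSP, the plakin that ties keratin filaments to desmosomes, was at 915 against 428 CPM, and PKP1, PERP and CLDN4 were higher as well, at 32.1, 37.6 and 19.1 CPM against 11.7, 10.8 and 4.71. Against shaft keratin cells, 6 of 15 junction genes were at least 2-fold higher (PERP, DSG1, DSC1, CLDN1, CLDN4 and TJP1). DSP and PKP1 were not among them, and DSG3, DSG4 and DSC3 were again lower. Of all genes against shaft keratin cells, 7.87% were higher and 10.4% lower.

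Epidermal suprabasal genes were not high as a block. KRT1 was at 276 CPM in sheath cells against 23.6 (11.7-fold, 11.0 to 12.4), whereas KRT10, its usual partner in the epidermis, was at 2.17 against 21.4 CPM. KRT1 was found in 45.5% of the sheath cells and KRT10 in 4.21%. KLK10, a kallikrein-related peptidase, was at 419 against 130 CPM. With SBSN, 3 of the 4 listed genes that reached 10 CPM were thus higher and 1 lower, against 3.55% and 18.6% of all genes.

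Among transcription factors, GATA3 was the listed gene that was at least 2-fold higher, at 672 CPM in sheath cells, 130 in the other E120 cells and 14.7 in shaft keratin cells. The ratio over the others was 5.15 (4.98 to 5.32). Of 18 listed factors at 10 CPM, 1 was higher and 9 were lower, with a median log2 ratio of -1.14. Of all genes, 3.55% were higher and 18.6% lower, and the 1 higher factor was not read as an excess of the list. HOXC13, a regulator of shaft keratin genes, was at 29.9 CPM against 385, LEF1, a nuclear partner of beta-catenin, at 59.9 against 198, and MSX1 at 60.8 against 269. BNC1, a basal keratinocyte factor, was at 6.14 against 62.1 CPM. CUX1, which is known in the inner root sheath lineage, was at 461 against 265 CPM (1.74-fold, 1.68 to 1.80), and TFAP2A and KLF4 were at 265 against 150 and 378 against 250 CPM.

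BMP and TGF-beta genes and Notch genes were lower or past 2-fold in neither direction, and the WNT list was mixed. Of 12 listed BMP and TGF-beta genes at 10 CPM, 0 were at least 2-fold higher and 8 at least 2-fold lower. Of all genes in this contrast, 3.55% were higher and 18.6% lower, which is also the scale for the Notch and WNT counts. ID1, a target of BMP signalling, was at 330 CPM against 1891, BAMBI, a decoy receptor, at 99.9 against 666, and the ligand BMP4 at 24.8 against 75.4. ID3, another such target, differed less, at 1383 against 1704 CPM, as did the ligand BMP7, at 114 against 134. In the Notch list 4 of 6 genes were lower and 0 higher. The ligand JAG1 was at 73.3 against 339 CPM and the target HES1 at 98.1 against 279, while the receptor NOTCH3 was at 67.7 against 51.0. In the WNT list 2 of 16 genes were higher and 7 lower. The 2 were the receptor FZD10, at 107 against 41.4 CPM, and NKD1, an inhibitor that WNT signalling induces, at 105 against 41.1. AXIN2, a common target, was lower, at 10.2 against 29.5 CPM, as was the ligand WNT10A, at 10.4 against 53.3.

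Genes of dividing cells were low. The 4 mitotic genes measured (TOP2A, CENPF, NUSAP1 and CDK1) summed to 40.4 CPM in sheath cells and 549 CPM in the other E120 cells, 13.6-fold lower (12.2 to 15.2). The 15 DNA replication genes summed to 120.6 against 651 CPM, 5.40-fold lower (5.06 to 5.77). All 10 that reached 10 CPM were at least 2-fold lower, against 18.6% of all genes. TOP2A, a topoisomerase of dividing cells, was at 14.7 against 222 CPM. Few sheath cells carried the rest: 9 cells with at least 1 CP10K held 71.3% of the TOP2A UMIs. The mitotic difference depended strongly on the keratin bound. Its log2 ratio was -3.76 at 200 CP10K, -1.39 at a bound of 100 CP10K and -4.78 at 400 CP10K.

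Basal and matrix genes were also lower than in the other E120 cells as a whole. In the comparison with all other E120 cells, 18.6% of all genes were at least 2-fold lower and 3.55% higher. Of 13 outer root sheath, companion and basal genes at 10 CPM, 11 were at least 2-fold lower and 0 higher. Against shaft keratin cells 3 of 7 genes of the same list were higher (KRT14, KRT17 and SOX9) and 2 lower, with a median log2 ratio of 0.71. Of all genes in that comparison, 7.87% were higher and 10.4% lower. KRT14 and KRT17 rested on few sheath cells, as given below, so their excess was not read as a trait of the group. After thinning, KRT14 was found in 4.74% of sheath cells and 4.29% of shaft keratin cells. Compared with the other E120 cells, KRT5, a basal keratin, was at 8.06 against 57.7 CPM and KRT15 at 4.48 against 43.3. The chemokine CXCL14 was at 73.3 against 809. KRT14 and KRT17 were at 131 against 590 and 134 against 629 CPM, and both rested on few cells: 5 sheath cells with at least 10 CP10K of KRT14 held 87.7% of its UMIs, and 4 with at least 10 CP10K of KRT17 held 72.1%. Of 10 genes of the matrix and germinative layer, 9 were lower and 0 higher. The lower ones included ID1, BAMBI, BMP2 and BMP4, which were also counted in the BMP and TGF-beta list above. Of 7 shaft genes at 10 CPM, without the keratins of the rule, 4 were lower (KRT33A, KRT36, GPRC5D and SELENBP1) and 1 was higher, namely FABP9, which had been listed as a shaft gene. Among the genes with the largest deficits were the orphan receptor GPRC5D, at 21.9 CPM against 563, the stem cell factor gene KITLG, at 21.9 against 333, and the proteoglycan gene DCN, at 26.1 against 409.

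Markers of other cell types were near 0 in the sheath cells. The 9 endothelial markers summed to 6.14 CPM in sheath cells, 88.5 in the other E120 cells and 2469 in the endothelial-like cells. The 9 dermal papilla and fibroblast markers summed to 32.1 CPM against 432, with PDGFRA and LUM at 0, and the 7 myeloid markers to 0.640 CPM, with PTPRC and CSF1R at 0. The 2 haemoglobin genes measured summed to 18.4 CPM against 273. The 7 mural markers, at 75.1 against 104 CPM, were mainly NOTCH3, which keratinocytes also express, and RGS5 was at 0.

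**Figure D3:**
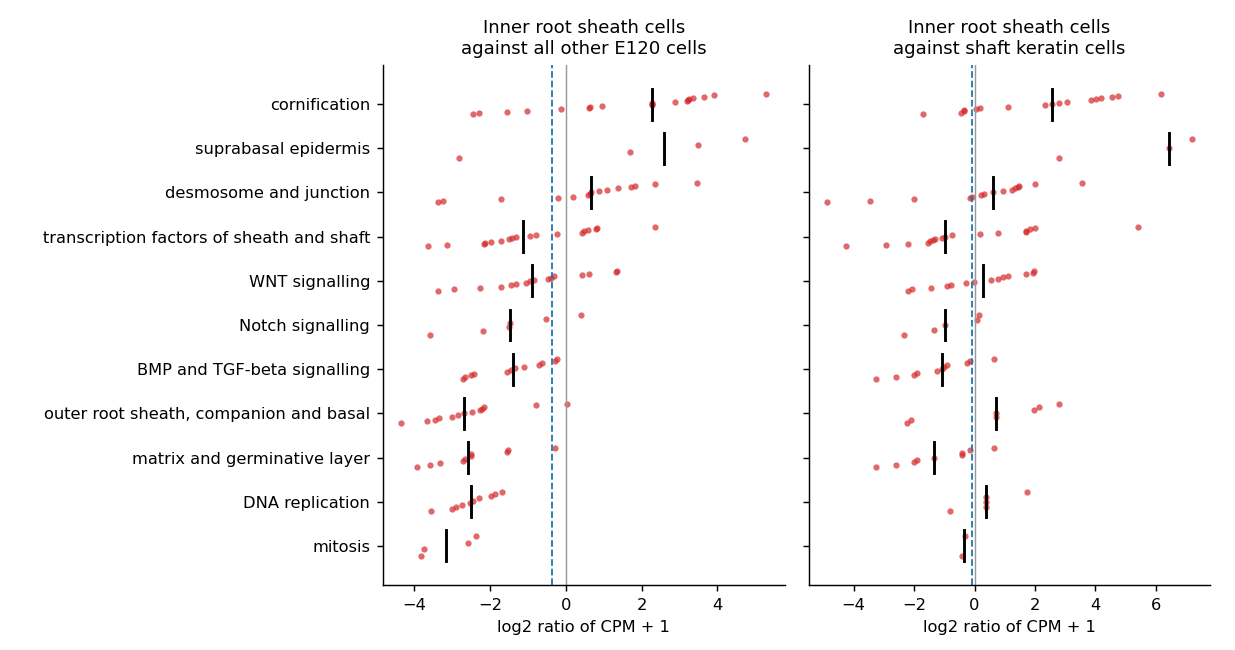
Log2 ratios of CPM + 1 for the listed genes with at least 10 CPM in either sum, with sheath cells over all other E120 cells on the left and over shaft keratin cells on the right; each dot is 1 gene, black bars are list medians and the dashed line is the median of all genes. Cornification genes centre at 2.28 and 2.56. The 4 mitotic genes lie far left against all other cells (median -3.17). Against shaft cells only 2 of them reached 10 CPM, and these lie near 0 (median -0.36).

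Shaft keratin cells are the other hardening lineage of the follicle and had a depth close to that of the sheath cells. Of 4614 genes at 10 CPM, 7.87% were at least 2-fold higher in sheath cells than in shaft keratin cells and 10.4% at least 2-fold lower, with a median log2 ratio of -0.08. Mitotic genes differed far less than against all other cells, at 40.4 CPM in sheath cells and 49.6 in shaft keratin cells, a ratio of 0.815 (0.718 to 0.922). The DNA replication sum was 120.6 against 106 CPM, a ratio of 1.14 (1.05 to 1.22). Both keratinised groups thus had low levels of these genes.

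The differentiation genes, in contrast, separated sheath from shaft. Of 17 cornification genes at 10 CPM, 11 were at least 2-fold higher in sheath cells and 1 lower. CHP2 was at 357 against 1.19 CPM, KRT1 at 276 against 2.19 (126-fold, 96.9 to 167), LRAT at 371 against 4.88 and SLC39A8 at 188 against 1.54. PADI3 was at 486 against 19.9 CPM and SPINK5 at 566 against 30.1. On the other side, GPRC5D stood at 21.9 CPM in sheath cells and 1675 in shaft keratin cells, LY6G6D at 15.3 and 853, EFHD1 at 11.9 and 644, and HEPHL1, a copper-dependent ferroxidase, at 2.43 and 236. The transcription factors divided along the same line: 5 of 17 were at least 2-fold higher (GATA3, CUX1, TFAP2A, DLX4 and BARX2) and 8 lower. GATA3 was 45.7-fold higher (41.1 to 50.8), CUX1 3.58-fold, and HOXC13 was at 29.9 against 588 CPM. The WNT list was mixed here as well. Of 14 WNT genes at 10 CPM, 4 were at least 2-fold higher in sheath cells (WNT5A, WNT11, FZD10 and TCF7L2). A further 3 were lower (WNT10A, AXIN2 and LEF1), with a list median log2 ratio of 0.27. Of all genes in this comparison, 7.87% were higher and 10.4% lower. WNT11 was at 21.9 against 5.03 CPM and TCF7L2 at 15.7 against 4.15.

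The terciles by summed keratin level gave an ordering among the sheath cells themselves. They are ranges of the selecting value and not cell types, and depth moved with them: the median UMI count was 16313, 20285 and 26053 from the lowest to the highest tercile, and depth and summed keratins had a Spearman correlation of 0.342 over the 380 cells. Of 4603 genes at 10 CPM, 2.19% were at least 2-fold higher in the highest tercile than in the lowest and 11.5% at least 2-fold lower. The sheath keratins took 2.63%, 4.42% and 14.6% of the UMIs in the 3 terciles, and the median gene stood at -0.41. With scaling by the median of gene ratios, the genes past 2-fold were 42.2% higher ones (164 higher and 225 lower), against 16.0% without it (101 higher and 531 lower), so ratios within the terciles are best read relative to that shift.

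Late differentiation genes followed more than 1 course. FABP9 was higher in each successive group, at 1585, 4171 and 13842 CPM, as was SBSN at 1173, 2848 and 6005 CPM and PADI3 at 327, 398 and 662 CPM. CASP14 was instead nearly confined to the highest tercile, at 2.79, 3.23 and 397 CPM, and LYPD5, a gene of the LY6 family, followed it at 0.465, 1.21 and 139 CPM. LYPD5 had 1 UMI in the lowest tercile, so its ratio of 299 has an interval from 53.3 to 11820. TGM7, a transglutaminase, was at 5.58, 9.30 and 112 CPM. Of the 45 cells with at least 1 CP10K of CASP14, 43 lay in the highest tercile. Other differentiation genes were level or peaked in the middle: SPINK5 was at 607, 524 and 570 CPM, CHP2 at 330, 374 and 363, KRT1 at 215, 391 and 228, and LRAT at 334, 493 and 301. Of 20 cornification genes at 10 CPM, 9 were at least 2-fold higher in the highest tercile and 1 lower, against 2.19% and 11.5% of all genes.

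Several regulators ran in the opposite direction. GATA3 stood at 993, 750 and 395 CPM from the lowest to the highest tercile, CUX1 at 597, 519 and 324, MSX1 at 118, 61.5 and 21.6, and ID1 at 603, 371 and 115. The difference of GATA3 between the outer terciles, a log2 ratio of -1.33, was larger than the median shift of all genes. Of 16 transcription factors at 10 CPM, 6 were at least 2-fold lower in the highest tercile and 1, PRDM1, was higher. Of 11 BMP and TGF-beta genes, 6 were lower and 1, TGFB2, was higher. Of all genes, 11.5% were lower and 2.19% higher. These counts are without scaling by the median of gene ratios, under which 225 genes in place of 531 were lower. KRT14 was at 412, 42.5 and 11.3 CPM. Without the 5 cells high in KRT14, its log2 ratio between the outer terciles was -0.89 in place of -5.07, and that of KRT17 was -2.11 in place of -3.31.

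The cells just under the bound were described in the same way. GATA3 was already at 819 CPM in the 185 cells between 50 and 100 CP10K and at 942 CPM in the 205 cells between 100 and 200 CP10K, against 71.0 CPM in the 6126 cells under 50. CUX1 was at 596 and 634 CPM in the same ranges. Mitotic genes, in contrast, differed across the bound. They summed to 539 CPM under 50 CP10K, 752 CPM at 50 to 100 CP10K and 603 CPM at 100 to 200 CP10K. In the 3 terciles the sum was 99.9, 35.2 and 4.38 CPM. The step from the range of 100 to 200 CP10K to the lowest tercile was 6.04-fold (5.24 to 6.98), and that from the lowest to the highest tercile was 22.8-fold (13.3 to 42.4). DNA replication genes followed with a smaller slope, at 827, 525, 172, 118 and 88.0 CPM. Just under the bound GATA3 was thus far above its level in the cells under 50 CP10K, while mitotic genes were nearer theirs. In the sheath cells GATA3 was high with mitotic genes low.

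**Figure D4:**
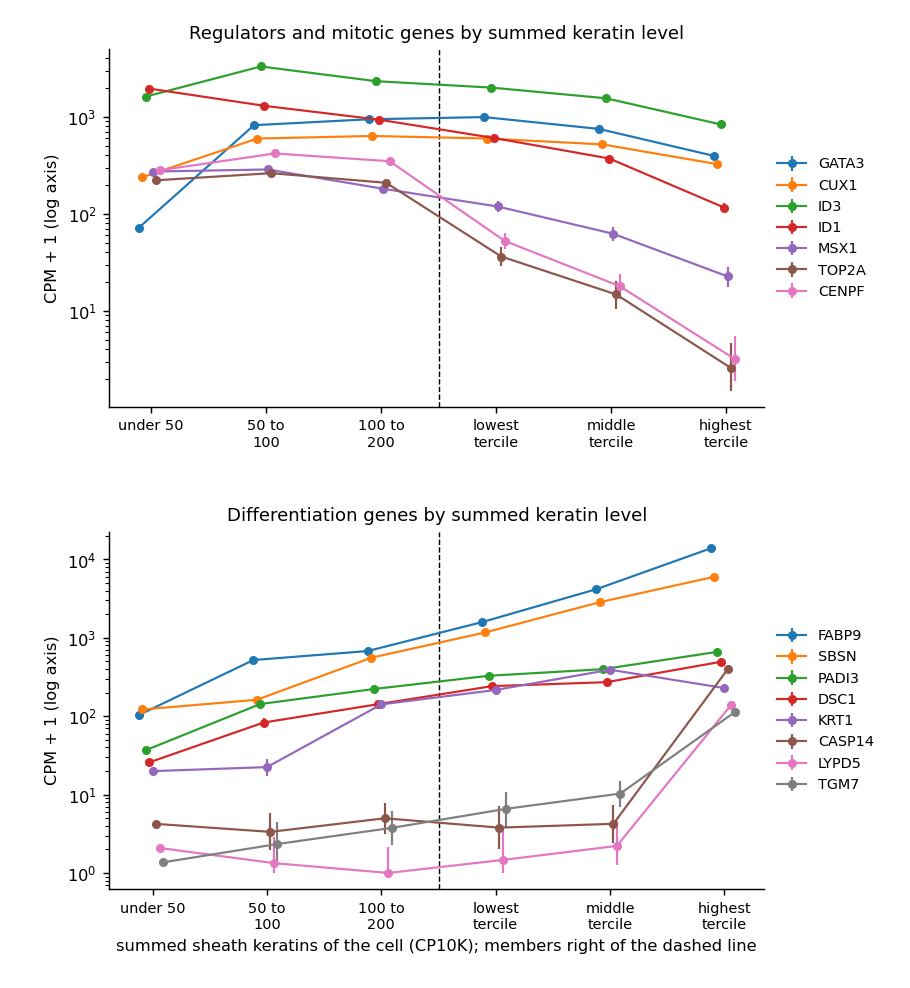
CPM + 1 on log axes in 6 groups of E120 cells ordered by summed sheath keratins, with exact 95% Poisson intervals; cells right of the dashed line are inner root sheath cells. In the upper plot GATA3 is high from 50 CP10K up to the lowest tercile, where it is at 993 CPM, and at 395 CPM in the highest. TOP2A is at 208 CPM just under the bound and 1.57 CPM in the highest tercile. In the lower plot FABP9 and SBSN are higher in each sheath tercile than in the one before. CASP14, LYPD5 and TGM7 are high in the highest tercile.

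The genes whose level was most like the summed sheath keratins were ranked by the Pearson correlation of log CP10K over the 380 cells, which share 1 library and differ in depth. CASP14 led with r = 0.676, followed by SBSN (0.663), LYPD5 (0.632), TUBA4A (0.631), GDPD3 (0.619), NKD1 (0.604), PLBD1 (0.603), ELOVL4 (0.569), FABP9 (0.557) and CRBP1 (0.556). CASP14 and LYPD5 were found in 17.1% and 13.7% of the cells, and 5 cells held 60.2% and 56.4% of their UMIs, whereas SBSN was found in 98.4% of the cells. NKD1 was at 38.1, 49.3 and 193 CPM in the terciles, and the tubulin gene TUBA4A at 635, 915 and 1964 CPM. TUBA4A was a gene of both lineages, since it stood at 1931 CPM in shaft keratin cells.

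Clustering of the 380 cells without the 8 keratins of the rule gave 3 clusters, which are described by number. Cluster 1 held 60 cells (15.8%), cluster 2 held 227 (59.7%) and cluster 3 held 93 (24.5%). Their genes come from the cells that were clustered, so the values are a description. The highest tercile supplied 73 of the 93 cells of cluster 3, whose median summed keratins were 1153 CP10K, against 325 CP10K in cluster 1 and 368 CP10K in cluster 2.

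Cluster 1 differed from cluster 2 in its keratins although the summed keratin level was close. KRT73, which was left out of the clustering, was at 367 CPM (335 to 402) in cluster 1, 36.2 in cluster 2 and 4.94 in cluster 3, and KRT28, also left out, at 6605, 2240 and 1562 CPM. Of the 71 cells with at least 1 CP10K of KRT73, 44 were in cluster 1. All 15 cells with KRT72, which held 33 UMIs of it, were in cluster 1, as were 16 of 28 with KRT74. Both genes were among the variable genes used. Cluster 1 also had the highest GATA3, at 1198 CPM against 682 and 306, and the highest KRT1, at 543 against 231 and 201. Its leading genes were CRYM, a thyroid hormone-binding crystallin, at 101.5 CPM against 2.92 in the other sheath cells, S100A1, a calcium-binding protein, at 520 against 28.6, EPS15, an endocytic adaptor, at 362 against 29.1, and FBP2, a gluconeogenic enzyme, at 267 against 30.3. CRYM had also been listed as a shaft gene.

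Cluster 2 was led by KRT14, KRT17 and CXCL14, with 4 of the 5 cells high in KRT14, and further by DAPL1 at 790 against 277 CPM and CHP2 at 475 against 199. The immediate early genes FOS and ATF3 were among its leading genes, at 1542 against 602 CPM and 163 against 48.4. All 9 cells with at least 1 CP10K of TOP2A were in it. It also held 8 of the 9 sheath cells called as doublets, and the part of doublets in its leading genes was not tested. Cluster 3 was led by CASP14, at 615 against 6.39 CPM, LYPD5, at 214 against 2.42, CAPN8, a calpain protease, at 135 against 2.59, and PADI1, at 128 against 11.4. It had KRT71 at 91334 CPM, KRT27 at 53900.3 CPM, FABP9 at 17796 CPM and the highest KRT26, at 44.5 CPM. KRT26 was found in only 7 of the 93 cells of cluster 3. The median mitochondrial share was lowest in this cluster, at 3.44% against 4.81% and 4.92%.

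**Figure D5:**
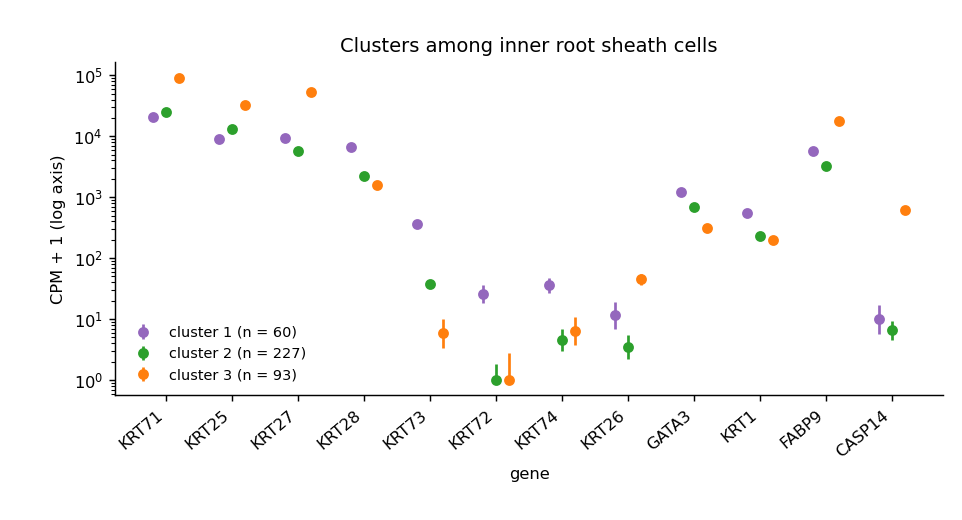
CPM + 1 on a log axis for 12 genes in the 3 clusters of inner root sheath cells, with exact 95% Poisson intervals. Cluster 1 has the highest KRT73 (367 CPM), KRT28, KRT72, KRT74 and GATA3, and cluster 3 the highest KRT71, KRT27, KRT25, KRT26, FABP9 and CASP14 (615 CPM). KRT26 was found in only 7 cells of cluster 3.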

How the data were processed

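The authors deposited 1 table of natural log values per gene and cell, and per the submitters' processing notes reads were processed with Cell Ranger 3.0.2. The genome build, annotation and cell filters are not given in the sources used here. Back-transformed values summed to 10000 in each cell. Divided by the smallest value of their cell, 100% were whole within 0.01, so UMI counts were recovered, assuming that this value is 1 UMI. The table listed 16739 genes, 12709 with a symbol, of which 11897 were matched in RefSeq (ARS1.2). Counts were summed over groups and given as CPM, and ratios are log2 of CPM + 1. Intervals are exact Poisson, binomial (Clopper-Pearson) or ratio intervals at 95%. Differences against 0 counts would use a floor of 3 counts.

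Members and gene lists were chosen with earlier results of these data known. Named genes were those with at least 100 CPM and the highest or lowest ratios (12 and 10 against other cells, 6 and 6 against shaft cells and between outer terciles), and listed genes at 2-fold. Further genes of the lists were named after their values had been seen. Clusters used Leiden (leidenalg 0.10.2, resolution 0.5) on 1000 variable genes, 10 principal components and 15 neighbours. A Scrublet-like caller marked 1.67% of E120 cells, 9 of 380 members among them, and 19.9% of simulated doublets. No cell was removed. Scripts were tested on simulated data and run with Python 3.11.15, numpy 2.4.6 and scipy 1.17.1.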

Additional observations from a re-analysis of the deposited data

How the results depend on the processing

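The number of inner root sheath cells was 580 at a bound of 100 CP10K and 209 at 400 CP10K, against 380 in the main analysis, and between 327 and 380 under the other filters on cells. The count of cornification genes at least 2-fold higher, 11 in the main analysis, was between 9 and 13 under every alternative run. The log2 ratio of the mitotic sum against other E120 cells, -3.76, was -1.39 at the bound of 100 CP10K, -4.78 at 400 CP10K, -3.57 with each cell weighing the same, -3.48 after thinning to 2000 UMIs and -3.50 with scaling by the median of ratios. Against shaft keratin cells it was -0.30. Over 46 named gene ratios and 334 alternatives, 192 stayed within their counting interval, 141 moved beyond it with the same sign and 1 reversed: KRT17 between the outer terciles was at 0.54 with the bound of 400 CP10K, against -3.31; the cause was not tested.

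Scaling by the median of ratios moved the share of higher genes among those past 2-fold from 16.0 to 24.3% against other E120 cells and from 43.0 to 47.3% against shaft keratin cells. Totals without the 8 keratins, leaving out the 5 cells high in KRT14, and terciles thinned to 2000 UMIs were added after the data had been seen. No sample was left out, since each stage has 1 library. No paired analysis was possible because the stages share no replicates and no result comes from a test.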

Other observations

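Ribosomal and cytoskeletal genes were compared between inner root sheath cells and the other E120 cells. Of the 5 ribosomal and translation genes measured, 0 were past 2-fold in either direction, with RPLP0 at 12371 CPM in sheath cells against 11372 and RPS18 at 8810 against 8810. Of 11 cytoskeletal genes at 10 CPM, 1, the non-muscle myosin gene MYH14, was at least 2-fold higher and 3 were lower, against 3.55% and 18.6% of all genes, among them the mesenchymal filament gene VIM, at 69.3 against 750 CPM.

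A gene without a symbol, ENSCHIG00000005102, singled out after its values were seen, was among the most abundant transcripts of the sheath cells. It stood at 23666 CPM in sheath cells, 1576 in the other E120 cells and 123 in shaft keratin cells. In the terciles by summed keratins it was at 5497, 18768 and 39709 CPM, so that its level followed that of the sheath keratins.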
